A study of Mus musculus with 4 samples.

Results

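The transferrin gene *Trf* and 9 further genes that handle iron were followed in regulatory T (Treg) cells of the large intestine (LI). The set holds *Trf*, *Tfrc*, *Slc11a2*, *Steap3*, *Fth1*, *Ftl1*, *Slc40a1*, *Hmox1*, *Aco1* and *Ireb2*, that is 10 of the 53379 genes in the table, each found by its exact symbol. These genes were chosen from the KO against control values of the same 4 libraries, so that contrast is given for them as a description, and limma calls among them are only counted beside those of all tested genes. In all, 8 of the 10 were among the 7639 protein-coding genes with a mean of more than 5 FPKM (fragments per length of transcript, scaled to the size of the library) in either group, the level above which genes were tested, and *Slc40a1* and *Steap3* were not.

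RNA-seq was performed on CD3+CD4+YFP+ cells sorted from the steady state LI of adult C57BL/6 mice. The sample records give about 200000 cells per library, whereas the methods of the paper give a larger number. Control mice (Foxp3Cre-YFP Setd2 f/+, labelled Setd24flox/+Foxp3-YFPcre) and KO mice (Foxp3Cre-YFP Setd2 f/f, labelled Setd24flox/floxFoxp3-YFPcre) gave 2 libraries each, and every library pooled 2 to 3 mice. All of the mice carried the Cre recombinase fused to YFP and driven by *Foxp3*, the gene that defines Treg cells, and the controls carried 1 floxed copy of *Setd2*, which encodes a histone H3 lysine methyltransferase. The comparison asks how loss of Setd2 changed the transcriptome of LI Treg cells.

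The table held FPKM only, so the depth of a library was unknown, and error could be judged only from how far the 2 pools of a genotype lay apart. FPKM at the same rank differed by at most 0.173% between the 4 libraries over the 5000 highest ranks, so a gene's value follows its rank in its library. *Setd2* stood at 38.2 and 27.4 FPKM in control 1 and control 2 and at 26.3 and 36.3 FPKM in KO 1 and KO 2. These ranges overlapped, and because reads from a deleted stretch are not listed apart from the rest of the gene, the value does not check the deletion. Of 6 Treg markers, *Il2ra* (184 and 180 FPKM in controls, 152 and 163 FPKM in KO) and *Ikzf2* (121 and 116 against 84.1 and 98.4 FPKM) were lower in both KO libraries and *Ctla4* (1593 and 1701 against 2160 and 2310 FPKM) was higher. *Cd3e*, *Cd4* and *Foxp3* overlapped, and *Foxp3* was low, between 2.62 and 5.61 FPKM. The part of these markers in the differences below was not tested.

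Cells take up iron bound to transferrin through the transferrin receptor, release it in endosomes after reduction by STEAP proteins, and pass it to the cytosol through the divalent metal transporter. Iron that is not used at once is stored within shells of ferritin heavy and light chains, and ferroportin is the exporter. The iron regulatory proteins bind hairpins in messenger RNA called iron-responsive elements (IREs). When iron is scarce, this binding blocks translation of the ferritins and ferroportin from their 5′ UTR and stabilises the transferrin receptor transcript through its 3′ UTR.

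The hairpins are shown because they divide the set into transcripts that match the strict pattern below and transcripts in which no match was found. Annotated transcripts of GRCm38 were searched on the coding strand for an unpaired C, 5 bases, a loop of CAGTGN, and 5 bases that pair with the first 5 (Watson-Crick or G with T). The sequences come from the reference genome, run 5′ to 3′ in windows of 30 bases, and capitals mark the 6 bases of the loop.
Fth1, 5′ UTR, chr19:9982732-9982761, plus strand: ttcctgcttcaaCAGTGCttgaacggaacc
Ftl1, 5′ UTR, chr7:45459778-45459807, minus strand: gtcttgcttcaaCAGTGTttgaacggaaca
Slc40a1, 5′ UTR, chr1:45925464-45925493, minus strand: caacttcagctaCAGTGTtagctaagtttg
Tfrc, 3′ UTR, chr16:32631219-32631248, plus strand: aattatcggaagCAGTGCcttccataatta
Tfrc, 3′ UTR, chr16:32631598-32631627, plus strand: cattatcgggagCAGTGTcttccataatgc
Tfrc, 3′ UTR, chr16:32631663-32631692, plus strand: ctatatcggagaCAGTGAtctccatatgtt
Tfrc, 3′ UTR, chr16:32631710-32631739, plus strand: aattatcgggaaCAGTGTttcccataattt

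Among 7625 tested genes with a complete coding transcript, 0.197% held such a match in a 5′ UTR and 0.734% in a 3′ UTR. Of 448 tested genes with a 5′ UTR within 25% of the length of that of *Fth1*, 2 (0.446%) held one, and the share was 0.268% for the length of *Ftl1*. For 3′ UTRs of the length of that of *Tfrc* it was 1.40%. Each of these shares counts the named gene itself. *Tfrc* was the only one of the 7625 genes with 2 or more matches. The 4 loops of *Tfrc* start 895, 1274, 1339 and 1386 bases into a 3′ UTR of 2458 bases. No match was found in *Trf*, *Slc11a2*, *Steap3*, *Hmox1*, *Aco1* or *Ireb2*, which says only that this pattern was not in their annotated UTRs. Hairpins of another shape were not searched for, so these transcripts are not shown to lack an IRE. A match is a description of the sequence and not a measured binding site.

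Transcript levels of the 10 genes ran from below 1 to 7434 FPKM, and since FPKM is a level per length, the genes can be ordered by their mean over the 4 libraries. *Fth1* (6376 FPKM) and *Ftl1* (5554 FPKM) came first with overlapping ranges. *Trf* followed at 115.8 FPKM and *Tfrc* at 42.5 FPKM, and neither range overlapped that of its neighbours in the order. Below them, *Hmox1* (17.8 FPKM) and *Slc11a2* (15.8 FPKM) overlapped, as did *Slc11a2* and *Ireb2* (13.3 FPKM). *Aco1* (5.35 FPKM) stood apart from both *Ireb2* and the near-silent pair *Slc40a1* (0.435 FPKM) and *Steap3* (0.0775 FPKM), which overlapped each other.

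**Figure D1:**
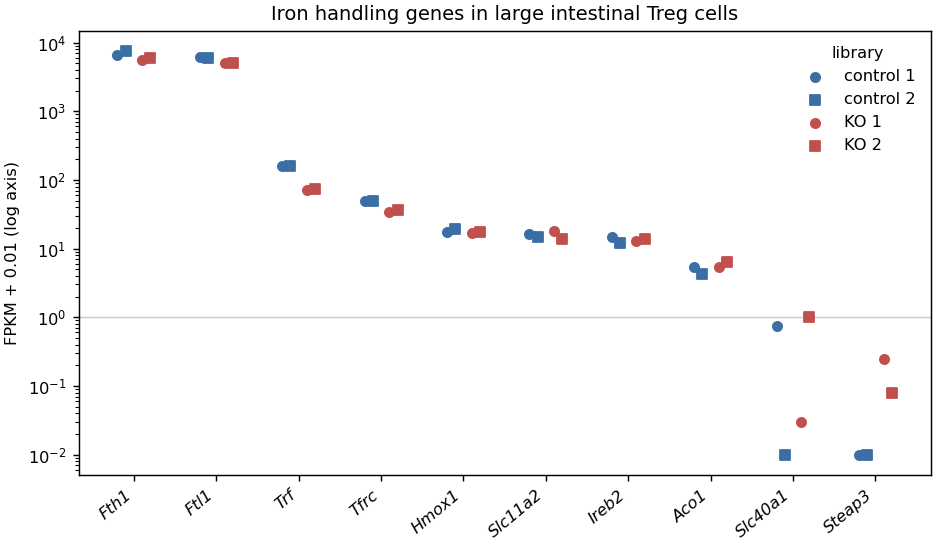
FPKM plus 0.01 (log axis) of the 10 genes in each library, ordered by mean, with control libraries in blue and KO libraries in red, replicate 1 as a circle and replicate 2 as a square, and a grey line at 1. A value listed at 0 lies at 0.01, and among genes above 1 FPKM the gap between blue and red is widest for *Trf*, at a mean of 159 FPKM in controls and 72.1 FPKM in KO.

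*Trf* encodes transferrin, the iron carrier of plasma, which hepatocytes secrete in the adult. Its level was 157.4 FPKM in control 1, 161.4 FPKM in control 2, 71.1 FPKM in KO 1 and 73.1 FPKM in KO 2. Both KO libraries were therefore far below both controls, while the libraries of one genotype were nearly equal. The means were 159 ± 2.80 FPKM in controls and 72.1 ± 1.41 FPKM in KO (SD, n = 2), so the KO mean was 45.2% of the control mean. On the log2(FPKM + 1) scale the difference was -1.13 with a standard error of 0.11, whereas control 1 and control 2 differed by -0.04 and KO 1 and KO 2 by -0.04. In rank, *Trf* was gene 795 and gene 776 in the controls and gene 1696 and gene 1652 in the KO. In sorted bulk cells, fewer cells that express a gene and less of its RNA per cell cannot be told apart.

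Markers of cells other than Treg cells were read from the same libraries, because transferrin is known mainly from hepatocytes and from myelinating glia. Of the hepatocyte markers, *Ttr* was at 0 in all 4 libraries, and the list of 3 (*Alb*, *Apoa1*, *Ttr*) summed to 0.40 and 0.45 FPKM in controls and 0.23 and 1.36 FPKM in KO. The 4 enteric glia markers, with *Sox10* and *Gfap* at 0, summed to at most 0.63 FPKM. Both sums were far below the level of *Trf*, and the part of such cells in that level was not tested. The 10 macrophage or monocyte markers summed to 286 and 247 FPKM in controls and 279 and 308 FPKM in KO, with 0 of the 10 lower in both KO libraries and 4 higher. Macrophage RNA was thus present in all 4 libraries, and its sum overlapped between the genotypes. That sum was above the level of *Trf* in each library, and its part in that level was not tested. The 9 epithelial markers summed to 33.3 and 35.4 FPKM in controls and 27.7 and 28.6 FPKM in KO, a sum that moved with *Trf*, and its part in the result was not tested. Of the 9, 1 was lower in both KO libraries (*Epcam*, 28.6 and 30.8 against 19.6 and 21.1 FPKM), 3 were higher, among them *Krt18* (4.23 and 4.52 against 7.22 and 7.18 FPKM), and 7 stayed below 1 FPKM throughout. The 6 stromal or endothelial markers summed higher in KO, at 55.1 and 48.0 FPKM against 37.4 and 40.4 FPKM. Most of that sum was *Pecam1*, at 34.65 and 36.26 FPKM in controls and 49.25 and 42.72 FPKM in KO. *Dcn* was also higher in both KO libraries, and the other 4 overlapped and stayed below 1 FPKM throughout. The B or plasma cell (126 to 187 FPKM), erythroid (6.82 to 32.9 FPKM) and neutrophil (0.40 to 1.90 FPKM) sums overlapped.

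*Trf* lies at chr9:103204001-103230444 on the minus strand of GRCm38, and its start is 7.30 Mb from that of *Setd2*. Its neighbours were at lower levels, and those that were tested had smaller log2 differences. *Srprb*, a subunit of the signal recognition particle receptor, stood at 32.1 and 40.3 FPKM in controls and 40.6 and 36.1 FPKM in KO (adjusted p = 0.832, limma), and *Topbp1*, a scaffold of the DNA damage response, at 18.6 and 14.3 against 13.0 and 21.3 FPKM (adjusted p = 0.973, limma). *Cdv3* was at 98.6 and 85.8 FPKM in controls and 54.8 and 65.8 FPKM in KO, a log2 difference of -0.61 with a standard error of 0.14, past the unadjusted threshold of 0.05 but not after adjustment (adjusted p = 0.1135, limma). The remaining neighbours were too low to test, with *Rab6b* between 1.61 and 2.60 FPKM and *1300017J02Rik* and *Gm20425* below 1 FPKM. *Gm20425* is a read-through annotation on the same strand that spans *Srprb* and *Trf*, so reads shared with it could be split from *Trf*. At 0.65 and 0.24 FPKM in controls and 0 in both KO libraries, its listed level was under 1% of that of *Trf*.

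Within 1 Mb of *Trf*, 8 other genes were tested, and 0 of them had a log2 difference as low as that of *Trf*. At unadjusted p below 0.05 in limma, 2 of the 8 were lower in KO and 0 higher. Within 5 Mb, 1 of 57 other tested genes was as low, *Rpl29* at -1.63, and 10 of the 57 were lower and 4 higher. Over all 7639 tested genes, 7.57% were lower and 8.61% higher. The median log2 difference was -0.02 within 1 Mb and -0.07 within 5 Mb.

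**Figure D2:**
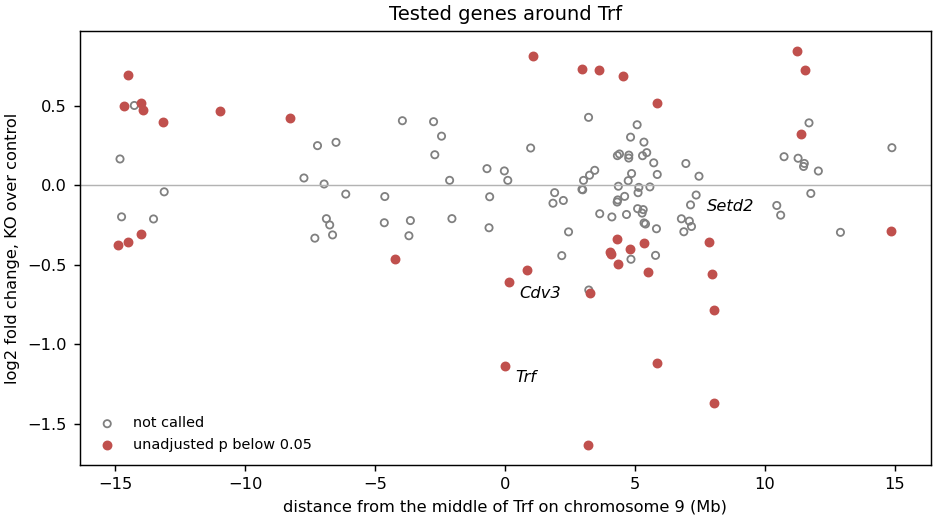
Log2 fold change, KO over control, of tested genes on chromosome 9 against their distance in Mb from the middle of *Trf*, within 15 Mb on either side, with filled points for unadjusted p below 0.05 and open points for the rest. *Trf* lies at -1.13, and of the tested genes next to it *Srprb* lies at 0.09, *Topbp1* at 0.03 and *Cdv3* at -0.61.

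The tested genes whose profile over the 4 libraries was nearest to that of *Trf* were named by the Euclidean distance between log2(FPKM + 1) values after each gene's mean was taken off. *Sfswap*, a splicing regulator, was nearest at a distance of 0.103, with 19.4 and 19.3 FPKM in controls and 8.67 and 9.16 FPKM in KO. *Plagl1*, a zinc finger transcription factor (29.6 and 29.1 against 13.7 and 14.5 FPKM), and *Lamp1*, a lysosomal membrane protein (69.9 and 80.3 against 34.5 and 32.7 FPKM), followed at 0.135 and 0.140. None of the 3 belongs to the iron genes.

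The transferrin receptor *Tfrc* (chr16:32608920-32632794, plus strand), through which transferrin enters the cell, stood at 49.2 FPKM in control 1, 50.1 FPKM in control 2, 34.2 FPKM in KO 1 and 36.3 FPKM in KO 2. Both KO libraries were lower than both controls. The means were 49.7 ± 0.62 FPKM in controls and 35.3 ± 1.49 FPKM in KO (SD, n = 2), or 71.0% of the control mean. The log2 difference was -0.48 with a standard error of 0.12. Because *Trf* differed more than its receptor, the ratio of *Trf* to *Tfrc* FPKM was 3.20 and 3.22 in controls and 2.08 and 2.01 in KO.

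*Slc11a2* (chr15:100387898-100425072, minus strand), which encodes the divalent metal transporter of endosomes and of the apical membrane of enterocytes, was at 16.5 and 14.7 FPKM in controls and at 18.0 and 13.8 FPKM in KO. The genotypes overlapped, and its log2 difference of 0.01 had a standard error of 0.18. *Steap3* (chr1:120190757-120272705, minus strand), an endosomal ferric reductase, was listed at 0 in both controls and at 0.24 and 0.07 FPKM in KO 1 and KO 2. It was barely detected in any library, so no fold change is given.

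The ferritin subunits were among the most abundant transcripts of the LI Treg cells. The heavy chain gene *Fth1* (chr19:9980598-9985098, plus strand), whose product oxidises iron for storage, was at 6607 FPKM in control 1, 7434 FPKM in control 2, 5596 FPKM in KO 1 and 5865 FPKM in KO 2. The light chain gene *Ftl1* (chr7:45457944-45459884, minus strand), whose product helps to form the mineral core, was at 6254, 5865, 5114 and 4983 FPKM in the same order. For both subunits the KO libraries lay below the controls without overlap, by a smaller factor than for *Trf* and *Tfrc*. The KO mean of *Fth1*, 5731 ± 190.3 FPKM, was 81.6% of the control mean of 7021 ± 584.4 FPKM, and that of *Ftl1*, 5049 ± 92.7 FPKM, was 83.3% of the control mean of 6060 ± 274.6 FPKM (SD, n = 2). The log2 differences were -0.29 for *Fth1* and -0.26 for *Ftl1*, each with a standard error of 0.12. Control 1 and control 2 differed from each other by -0.17 for *Fth1*, so the spread between control pools was not small beside the difference between genotypes.

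Together the 2 subunits made up 1.66% and 1.72% of all FPKM in controls and 1.38% and 1.40% in KO. In rank, *Fth1* was gene 9 and gene 7 in the controls and gene 12 and gene 11 in the KO, and *Ftl1* was gene 10 and gene 11 in the controls and gene 14 and gene 15 in the KO. Since values follow ranks, control 2 for *Ftl1* and KO 2 for *Fth1* hold the same 5865 FPKM, the value of rank 11. The ratio of *Fth1* to *Ftl1* varied between 1.06 and 1.27 with no separation of the genotypes, whereas the ratio of summed ferritin to *Tfrc* was 261 and 265 in controls and 313 and 299 in KO.

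**Figure D3:**
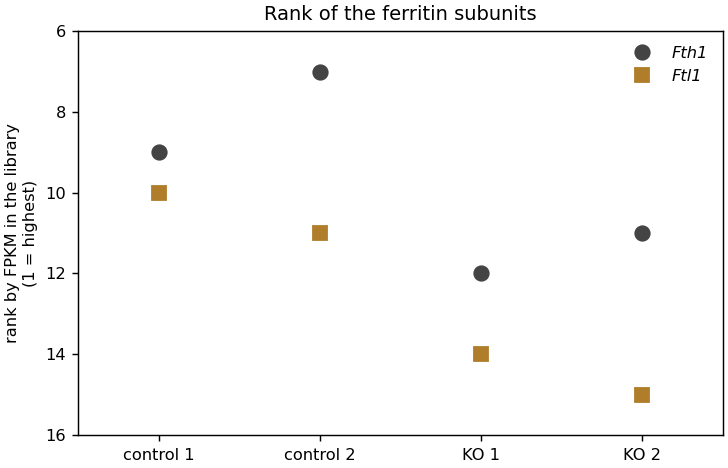
Rank of *Fth1* (circles) and *Ftl1* (squares) by FPKM within each of the 4 libraries, with rank 1 as the highest at the top. *Fth1* moves from ranks 9 and 7 in controls to 12 and 11 in KO, and *Ftl1* from 10 and 11 to 14 and 15.

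Ferritin genes have many near-identical copies in the mouse genome, and how the counting shared reads among them affects the level of the parent gene. The table held 14 rows with symbols of ferritin copies, of which 9 were at 0 in all 4 libraries. *Ftl1-ps1* was the highest, at 218 and 177 FPKM in controls and 163 and 186 FPKM in KO, followed by *Fth-ps2* (4.08 to 8.56 FPKM) and *Ftl2-ps* (at most 0.76 FPKM). The copies summed to between 1.37% and 1.80% of *Fth1* plus *Ftl1* in each library. Copies listed under other symbols were not counted, and reads of copies that were assigned to the parent genes cannot be seen in FPKM. The part of shared reads in the levels of *Fth1* and *Ftl1* was not tested.

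The ferroportin gene *Slc40a1* (chr1:45908068-45926523, minus strand), the exporter of cellular iron, was at 0.73 and 0 FPKM in controls and at 0.02 and 0.99 FPKM in KO. It stayed below 1 FPKM in every library, and each genotype held a library near 0 and a library near 1, so no fold change is given.

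*Hmox1* (chr8:75093621-75100589, plus strand) encodes haem oxygenase, which opens the haem ring and frees its iron. It stood at 17.6 FPKM in control 1, 19.4 FPKM in control 2, 17.0 FPKM in KO 1 and 17.4 FPKM in KO 2. The KO libraries were below the controls, but KO 2 lay only just under control 1, and the log2 difference of -0.10 was smaller than its standard error of 0.15.

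The cytosolic aconitase *Aco1*, which becomes an iron regulatory protein when it loses its iron-sulphur cluster, and *Ireb2*, the iron regulatory protein that is degraded when iron is plentiful, are the readers of the hairpins shown above. *Aco1* (chr4:40143081-40198338, plus strand) was at 5.45 and 4.24 FPKM in controls and at 5.34 and 6.38 FPKM in KO. *Ireb2* (chr9:54863789-54912530, plus strand) was at 14.7 and 11.9 FPKM in controls and at 12.9 and 13.6 FPKM in KO. Both genes overlapped between the genotypes, with log2 differences of 0.23 (standard error 0.23) and 0.0017 (standard error 0.18). *Ireb2* was the more abundant in every library, at 2.70 and 2.80 times the FPKM of *Aco1* in controls and 2.41 and 2.13 times in KO.

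**Figure D4:**
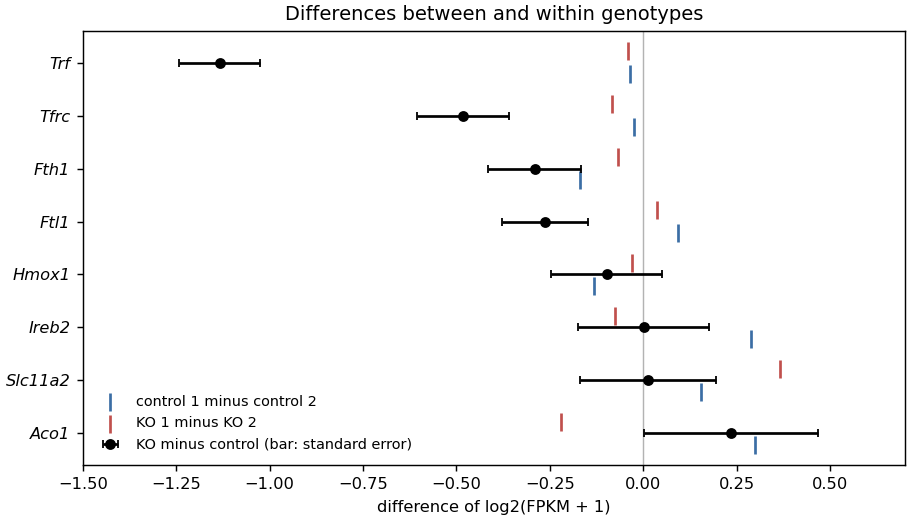
Difference of log2(FPKM + 1) for the 8 tested genes, with black points for KO minus control (bars give the standard error of the limma fit), blue ticks for control 1 minus control 2 and red ticks for KO 1 minus KO 2. The black point lies far outside both ticks for *Trf* (-1.13) and *Tfrc* (-0.48) and between or near the ticks for *Hmox1*, *Ireb2*, *Slc11a2* and *Aco1*.

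Counted over the 8 tested genes, 3 (*Trf*, *Tfrc* and *Fth1*) were lower in KO at unadjusted p below 0.05 in limma and 0 were higher. Over all 7639 tested genes, 7.57% were lower, 8.61% higher and 16.2% either. With Benjamini-Hochberg adjustment 1 of the 8 genes, *Trf*, stayed under the threshold of 0.05, as did 0.589% of all tested genes, and 0 of these genes did so without a filter, without a trend, without KO 1 or without KO 2, where 11, 3, 2 and 3 of all tested genes passed. In 5 of the 8 (*Trf*, *Tfrc*, *Fth1*, *Ftl1* and *Hmox1*) the genotypes did not overlap, against 47.1% of all tested genes. The median log2 difference was -0.18 over the 8 genes and -0.0039 over all tested genes. As the genes were selected on this contrast, nothing is read from these counts. The number called lower ranged from 2 to 4 under other settings.

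The wider machinery of iron was read from a list of 93 further genes in 10 roles, of which 58 were tested. Of these, 5 were higher in KO at unadjusted p below 0.05, 1 was lower and 52 were not called, that is 10.3% called against 16.2% of all tested genes, and 0 passed after adjustment in limma (2 did under a crossed pairing of the libraries that was chosen after seeing the data). The genotypes did not overlap for 60.3% of the 58, against 47.1% of all tested genes, and the median log2 difference was -0.01.

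The 3 further genes of the transferrin family and the 8 genes of export and hepcidin held 0 tested members. *Ltf*, the lactoferrin gene, and *Hamp*, the hepcidin gene, led these roles at no more than 1.89 and 7.55 FPKM. Among 5 tested genes of uptake and endosomal release, 0 were called and the median log2 difference was -0.23, with *Snx3*, a sorting nexin that recycles the transferrin receptor, highest at 205 and 208 FPKM in controls and 215 and 209 FPKM in KO. Among the 4 tested of storage and chaperones, 0 were called and the median was -0.24, with the iron chaperone *Pcbp1* highest at 42.1 and 46.5 against 37.5 and 34.2 FPKM (adjusted p = 0.327, limma). Among the 4 tested regulators, 0 were called, and *Hif1a*, the hypoxia-inducible factor, was the highest at 447 and 525 against 460 and 425 FPKM.

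Of 8 tested genes of haem synthesis 0 were called, with a median of 0.0048 and *Urod*, uroporphyrinogen decarboxylase, highest at 29.2 and 33.6 against 35.1 and 35.1 FPKM. Of 6 tested genes of haem transport and breakdown, 2 were higher in KO and the median was 0.25. *Abcg2*, an efflux transporter of porphyrins and many drugs, was at 3.80 and 3.32 FPKM in controls and 9.23 and 9.80 FPKM in KO, a log2 difference of 1.21 with a standard error of 0.21 (adjusted p = 0.0647, limma). Both KO libraries were above both controls, and leaving out any one library gave 1.13 to 1.28, while a pseudocount of 5 gave 0.76. *Blvrb*, a biliverdin reductase that acts after haem oxygenase, was at 4.45 and 6.05 against 9.39 and 9.09 FPKM, a log2 difference of 0.72 with a standard error of 0.22 (adjusted p = 0.186, limma). Its unadjusted call was lost without control 1 or without KO 1. *Pgrmc1*, a haem-binding membrane protein, was the highest of the role, at 84.3 and 82.9 against 78.7 and 83.7 FPKM.

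Iron-sulphur cluster assembly in mitochondria, the main use of iron next to haem, held 16 tested genes, of which 2 were higher and 1 was lower in KO. The scaffold gene *Iscu* was lower, at 107 and 102 FPKM in controls and 69.1 and 82.5 FPKM in KO, a log2 difference of -0.46 with a standard error of 0.13 (adjusted p = 0.163, limma), and this unadjusted call was lost without KO 1. *Isca2* and *Nfu1*, which act late in assembly, were higher by 0.28 ± 0.11 and 0.34 ± 0.13 (log2 ± standard error, adjusted p = 0.276 and 0.268, limma). In the cytosolic pathway, 1 of 11 tested genes was called, the scaffold gene *Nubp2*, at 126 and 128 FPKM in controls and 158 and 154 FPKM in KO, a log2 difference of 0.30 with a standard error of 0.11 (adjusted p = 0.236, limma). The unadjusted calls of *Isca2* and *Nubp2* were lost when any one library was left out, and that of *Nfu1* without control 1, KO 1 or KO 2. *Ndufab1*, the mitochondrial acyl carrier protein and the highest of the mitochondrial assembly genes, was at 127 and 113 against 114 and 94.3 FPKM. Of 4 tested genes of mitochondrial iron import and export, 0 were called, and *Slc25a38*, the carrier that brings glycine in for haem, was highest at 39.2 and 39.8 against 36.8 and 30.2 FPKM.

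**Figure D5:**
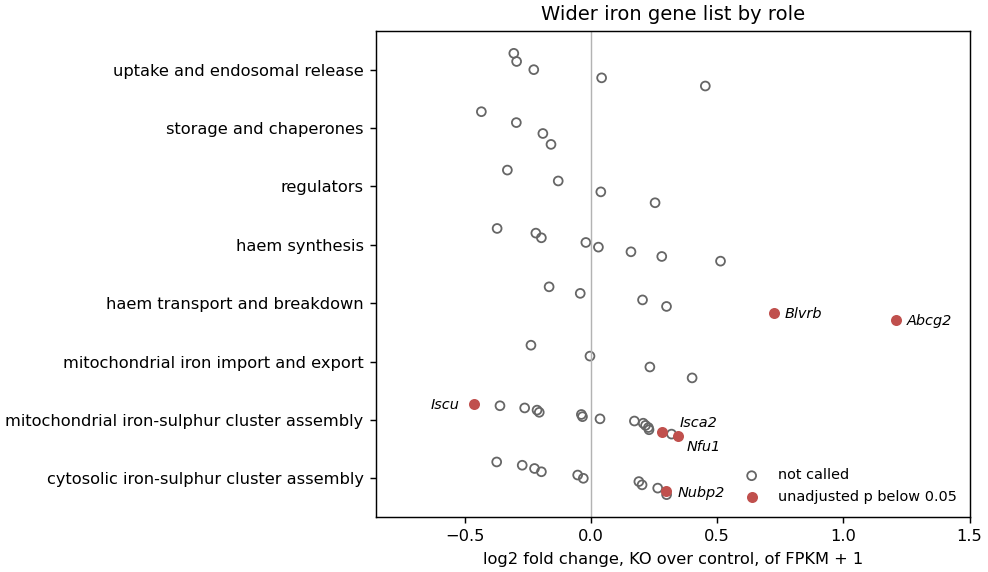
Log2 fold change, KO over control, of FPKM + 1 for the 58 tested genes of the wider list, 1 row per role, with filled points for unadjusted p below 0.05 and open points for the rest. The 6 filled points are *Abcg2* (1.21), *Blvrb* (0.72), *Nfu1* (0.34), *Nubp2* (0.30), *Isca2* (0.28) and *Iscu* (-0.46), and 0 of them passed after adjustment.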

How the data were processed

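RNA-seq was performed on pooled LI Treg cells, with 2 control and 2 KO libraries. Paired reads of 150 bp were processed by the authors with STAR 2.5 and RSEM 1.2 on GRCm38, per the submitters' processing notes, and the authors deposited FPKM per gene. Values at equal rank are nearly equal in the 4 libraries, a step that is not given in the sources used here. A gene near 0 and a fold change of a gene at extreme rank are shaped by it. FPKM keeps no depth, so no counting interval was computed and no count test was run, and library depth is unknown.

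Protein-coding genes (GENCODE annotation of GRCm38) whose FPKM averaged above 5 in the control or the KO libraries were tested with limma 3.58.1 in R 4.3.3 (empirical Bayes with trend) on log2(FPKM + 1), KO against control, two-sided, with Benjamini-Hochberg adjustment. A log2 difference understates changes of low genes. With 2 against 2 libraries an exact permutation test cannot go below p = 0.333. The p-values and standard errors rest on the spread between pools, with the variance of each gene drawn toward a trend over all tested genes. They therefore do not measure the spread of that gene alone. The fit was tested on simulated data with independent normal errors whose spread came from the fit itself. Those data did not hold values tied to rank, so they do not check the p-values of these libraries. Tables and figures were made with Python 3.11.15, pandas 2.3.3 and matplotlib 3.10.9.

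The iron genes, the wider list and the marker lists were chosen with earlier results of these data known. Named genes were the 10 iron genes, genes of the wider list with unadjusted p below 0.05 and the highest gene of each of its roles, *Setd2*, the 3 protein-coding genes on either side of *Trf*, the 3 tested genes nearest to it in profile, and the 3 highest ferritin copies. *Hfe* and *Rpl29* were named after their values were seen. Alternatives were the pseudocount, the filter, gene type, rescaling, centring, the trend, the replicate number as a block, and each library left out.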

Additional observations from a re-analysis of the deposited data

How the results depend on the processing

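The direction of *Trf*, *Tfrc*, *Fth1*, *Ftl1*, *Hmox1* and *Aco1* held in every alternative tried. The log2 difference of *Trf* ranged from -1.15 to -1.09 (-1.09 with a pseudocount of 5), and without 1 library the ranges were -0.52 to -0.44 for *Tfrc*, -0.38 to -0.21 for *Fth1* and -0.31 to -0.22 for *Ftl1*. *Slc11a2* (-0.17 to 0.20) and *Ireb2* (-0.14 to 0.15) took either sign. Members called lower ranged from 2 to 3 without 1 library and were 4 with the replicate block or all gene types, and 2 with a pseudocount of 5, no filter, median-centred values, no trend or the crossed pairing.

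Over all tested genes, 658 were higher and 578 lower. Without a filter 1198 were higher. Without 1 library, 330 to 650 were higher and 314 to 600 lower, with the lowest of these without KO 2 and 406 higher without KO 1. Of the wider list, 11 were higher and 9 lower without a filter, 3 and 3 without a trend, and 2 to 4 and 0 to 3 without 1 library (2 higher without control 1 or KO 1, and 0 lower without KO 1).

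Nothing in the labels ties same-numbered pools, and their deviations from the group means correlated at -0.305. The fit with a replicate block called 419 genes higher and 377 lower, and 2 of the wider list were higher. With crossed numbers, chosen after seeing the data, 1008 were higher and 983 lower, and 7 of the wider list were higher and 7 lower, of which 2 (*Abcg2* and *Iscu*) passed after adjustment. The log2 difference of *Abcg2* was 0.76 with a pseudocount of 5 and 1.40 with 0.1. The causes of these shifts were not tested. Depth could not be assessed, and 2 pools per genotype limit the precision.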

Other observations

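Among iron genes below the level at which genes were tested, some were listed near 0 in the controls. *Ltf*, which encodes lactoferrin, an iron-binding protein of secretions and neutrophil granules, was at 0.06 and 0.04 FPKM in controls and 1.89 and 0.94 FPKM in KO, and its start is 0.487 Mb from that of *Setd2*. *Hfe*, which encodes a membrane protein that binds the transferrin receptor, was at 0.16 and 0.31 FPKM in controls and 1.35 and 1.41 FPKM in KO. Both genes were listed higher in each KO library than in each control, and *Hfe* was named for its values. Of the wider list below the tested level, *Tfr2*, *Steap2*, *Steap4*, *Flvcr2*, *Slc25a37* and *Abcb10* were also higher in both KO libraries. *Scara5*, *Flvcr1* and *Iba57* were lower in both, and the rest overlapped. Among tested genes the genotypes did not overlap for 47.1%, so nothing is read from these patterns. *Hamp*, the hepcidin gene, was at 4.12 and 5.25 FPKM in controls and 0.63 and 7.55 FPKM in KO, with overlap. No test was run on the genes named here, and values of this size lie where the FPKM of a library rests on few reads.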
